A study of Culter alburnus with 9 samples.

Results

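In *Culter alburnus*, a cyprinid fish of fresh waters, 6 fish with at least 1 edited copy of runx2b were set as one group against 3 wild-type fish, so that any mutant allele was compared with none. The members were all fish labelled with a mutant genotype, 6 of the 9 sequenced, as 3 heterozygous fish (He 1 to He 3) and 3 homozygous fish (Ho 1 to Ho 3). The 3 wild-type fish are Ctrl 1 to Ctrl 3. Within each genotype the study picked healthy fish of like size whose bones were typical of it, so the fish were not a random draw. All 9 were F1 juveniles of 2 months from pairings of founders edited by CRISPR/Cas9 and carrying one mutation type, so every fish, wild type included, descends from edited parents. Each library came from 1 fish. The tissue was trunk muscle dissected with its myosepta, the connective sheets in which intermuscular bones form, and by the study's methods it was enriched for them, not purified.

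Runx2 is a Runt-domain transcription factor that starts the osteoblast programme in vertebrates, and runx2b is one of the 2 copies that teleost fish carry. Intermuscular bones ossify inside the myoseptum without a cartilage template, beside muscle fibres, tendon cells, vessels, nerves and, where the dissection reached it, skin. The pooled comparison asks which transcripts shared a direction in carriers of either mutant genotype.

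Library totals ran from 15869084 to 21009438 estimated counts, and the 10 most abundant genes, which included creatine kinase (CKM), parvalbumin (PVALB), myosin heavy chain (MYH1s) and actin (acta1), took 40.1% to 52.4% of them. Muscle transcripts thus led in every fish. Total counts averaged 18357110 ± 1978647 (SD, n = 6) in the mutants and 16488113 ± 788764 (SD, n = 3) in Ctrl (two-sided exact permutation test over 84 splits, p = 0.167). The number of genes with a count, the share of the 10 most abundant genes and the share of loci assembled from reads differed no more clearly (exact permutation p = 0.536, 0.321 and 0.321). Values below are CPM, counts scaled to an equal library size, corrected by TMM (a trimmed mean of ratios between libraries), whose factors ran from 0.708 in He 1 to 1.4 in Ctrl 2. Log2 fold changes are edgeR's for the mutants against Ctrl unless DESeq2 is named.

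The target of the edit was runx2b, taken here as a locus with the symbol RUNX2 (ABG768_014534, chromosome 20, 33043703 to 33074321 of assembly GCA_040182925.1). That symbol does not tell the teleost copies apart. The counts of this locus were 11, 27 and 0 for the Ctrl fish, then 0, 8 and 3 for the He fish, and 11, 5 and 2 for the Ho fish. The groups overlapped, and a wild-type fish and a mutant shared the lowest value. Its mean was 0.259 ± 0.203 CPM (SD, n = 6) in the mutants and 0.566 ± 0.609 CPM (SD, n = 3) in Ctrl, a log2 fold change of -1.12 (standard error 0.91, edgeR adjusted p = 0.767). A difference was not detectable at this depth, and without Ctrl 2 the log2 fold change was 0.00. Counts over the whole gene do not show whether a transcript carries the edit.

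As wholes, the 6 mutants and the 3 Ctrl fish were not separated beyond their spread. The mean distance in log2 CPM, the root mean square difference over the tested genes, was 0.984 between a mutant and a Ctrl fish, 0.932 between mutants and 0.886 between Ctrl fish. The ratio of the spread between the groups to that within them (pseudo-F) was 1.6, with a one-sided exact permutation p = 0.107 over 84 splits, of which the smallest possible is 0.0119. Ctrl 3 lay nearer to the mutants (mean distance 0.883) than to the other Ctrl fish (1.01), and without it the pseudo-F was 2.27 (exact permutation p = 0.0357). On the 500 most variable genes it was 2.12 (exact permutation p = 0.0238).

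Of 14755 loci tested, edgeR called 0 at an adjusted p under 0.01 with a change of at least 2-fold (0%), the threshold of the study's methods, and 0 at an adjusted p under 0.05. Its smallest adjusted p was 0.331. At an unadjusted p under 0.05 it had 611 loci higher in the mutants (4.14%) and 656 lower (4.45%). DESeq2, on the same counts, called 33 higher (0.225% of the 14688 with an adjusted p) and 10 lower (0.0681%). At an adjusted p under 0.05 it had 86 higher (0.586%) and 36 lower (0.245%). All 43 DESeq2 calls had an unadjusted edgeR p under 0.05, and in 25 of them the 6 mutants and the 3 Ctrl fish did not overlap. Over all tested loci the 6 mutants lay above the 3 Ctrl fish in 260 (1.76%) and below them in 284 (1.92%), together 3.69%. With counts scaled to library totals those were 69 above and 502 below, and with the deposited TPM 51 and 782. The median log2 fold change of all loci by edgeR went from 0.00 under TMM to -0.32 with library totals. With TPM it was -0.24 by limma on log2(TPM + 1), where tool and scale both differ. Directions below are therefore relative to the TMM scale.

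The DESeq2 calls turned on single fish, and on wild-type fish most. Without Ctrl 1 or without Ctrl 2 DESeq2 made 8 calls, all higher in the mutants, and without Ctrl 3 there were 349. Of the 122 loci at an adjusted p under 0.05, 12 stayed there whichever fish was left out. In the 36 lower ones Ctrl 3 was the wild-type fish nearest to the mutants 34 times and lay inside their range 20 times, while in the 86 higher ones He 1 was the mutant nearest to Ctrl 37 times and lay inside the Ctrl range 22 times. The loci higher in mutants thus include a set that He 1 did not share, and the lower ones rest mainly on Ctrl 1 and Ctrl 2.

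**Figure D1:**
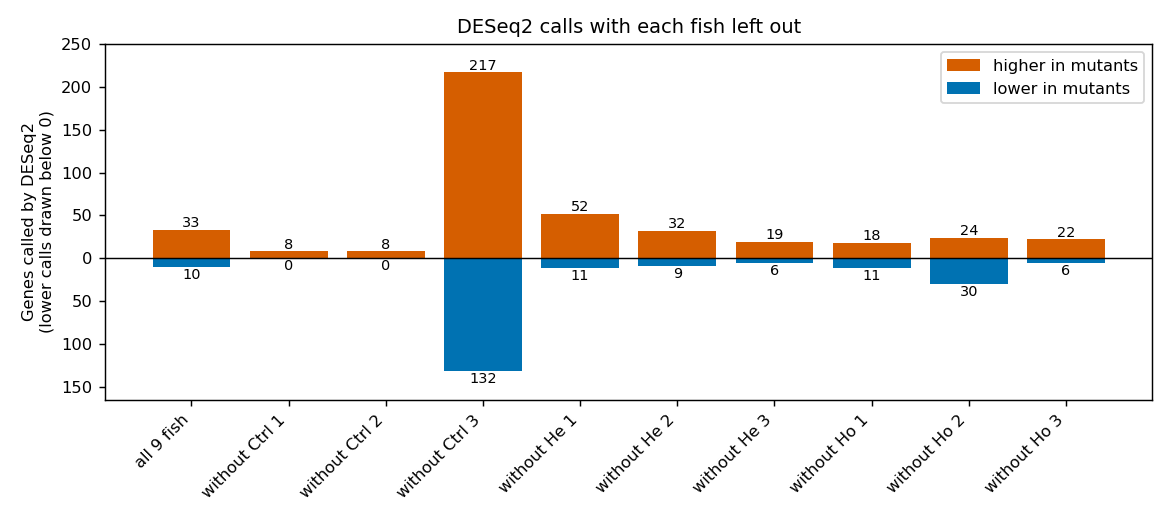
Number of genes called by DESeq2 (adjusted p under 0.01 and at least 2-fold) with all 9 fish and with each fish left out in turn, genes higher in the mutants drawn above 0 and genes lower below 0. With all fish there were 33 and 10 calls, without Ctrl 1 or Ctrl 2 there were 8 and 0, and without Ctrl 3 there were 217 and 132.

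Among loci with no overlap between the groups, the 12 with the smallest edgeR p in the higher direction held genes of innate and adaptive immunity, a fast myosin and regulators of transcription and signalling. All 12 were higher by DESeq2 at an adjusted p under 0.05, and edgeR gave each an adjusted p of 0.331 to 0.404. Because the 12 were chosen on the same counts, their DESeq2 p-values are no separate evidence. Gimap9 (ABG768_020414, chromosome 3, 63820859 to 64011547), a GTPase of the immunity-associated family that acts in lymphocyte survival in mammals, stood at 0.756, 1.84 and 1.78 CPM in Ctrl, at 7.03, 9.96 and 6.05 for He 1 to 3, and at 5.95, 14.3 and 6.92 for Ho 1 to 3. Every mutant was more than 3 times as high as the highest wild-type fish. The log2 fold change was 2.53 (standard error 0.4, edgeR adjusted p = 0.377; DESeq2 adjusted p = 1.27e-06) and was 2.41 for He alone and 2.64 for Ho alone.

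NLRC3 (ABG768_013788, chromosome 20, 2041669 to 2056647), named for a NOD-like receptor that dampens innate signalling in mammals and one of a large family in fish, stood at 0.311, 0.448 and 0.446 CPM in Ctrl and at 0.925 to 2.36 CPM in the mutants. Its log2 fold change was 2.03 (standard error 0.39, DESeq2 adjusted p = 0.00576). TRIM35 (ABG768_020687, chromosome 3, 75091999 to 75113094), a tripartite motif protein, was at 1.64, 1.7 and 2.23 CPM in Ctrl and 3.33 to 4.71 CPM in the mutants (log2 fold change 1.05, standard error 0.22, DESeq2 adjusted p = 0.00974). Both belong to families with many close copies, so reads could be split among them. The groups did not overlap in either gene, at low levels. Other loci with the NLRC3 name, chosen here after their values were seen, were lower in the mutants by DESeq2. The assembled locus MSTRG.11895 was at 6.89, 8.2 and 0.817 CPM in Ctrl and 0.269 to 1.08 CPM in the mutants (adjusted p = 0.0047 by DESeq2, 0.216 without Ctrl 1 and 0.346 without Ctrl 2). ABG768_010314 (chromosome 17) was at 0.762 to 1.42 CPM in Ctrl and 0.0636 to 0.568 CPM in the mutants (DESeq2 adjusted p = 0.0475, and 0.0537 to 0.764 when any 1 fish other than He 1 was left out). The name thus covers loci that differed in opposite directions.

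MYH1s (ABG768_023108, chromosome 5, 39015369 to 39026611), a fast skeletal myosin heavy chain, had the largest level among the 12. It stood at 35.4, 10.4 and 52.7 CPM in Ctrl, at 519, 821 and 6080 CPM for He 1 to 3, and at 1379, 2184 and 763 CPM for Ho 1 to 3. The mutants differed among themselves by more than 10 times, with He 3 far above the rest, yet the lowest of them was well above the highest Ctrl fish. The log2 fold change was 5.9 (standard error 1.11, edgeR adjusted p = 0.377; DESeq2 adjusted p = 5.46e-12). It is 1 of 5 loci named MYH1s within chromosome 5, 38155605 to 39059023, and the neighbour ABG768_023109 moved with it (185, 60.6 and 374 CPM in Ctrl, 939 to 10872 CPM in the mutants). The most abundant of the 5 did not separate the groups, and summed over all 5 the Ctrl fish had 76954, 41747 and 183740 CPM and the mutants 82837 to 227378 CPM, which overlap. How reads were divided among near-identical myosin copies was not measured.

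Of the regulators, mapk8 (ABG768_004133, chromosome 12, 1705027 to 1730235), the stress-activated kinase JNK1, stood at 5.07, 5.24 and 6.46 CPM in Ctrl and 8.33 to 11 CPM in the mutants. Its change was small and even, at a log2 fold change of 0.8 (standard error 0.16, DESeq2 adjusted p = 0.00344). TWIST2 (ABG768_012308, chromosome 19, 37612267 to 37614234), a basic helix-loop-helix factor of mesenchyme that restrains Runx2 activity in mouse osteoblasts, was at 1.33, 1.21 and 1.19 CPM in Ctrl, at 1.92, 2.82 and 4.33 for He 1 to 3, and at 3.92, 2.93 and 3.16 for Ho 1 to 3. The 3 Ctrl fish were almost level, and He 1 was the mutant nearest to them. The log2 fold change was 1.35 (standard error 0.28, edgeR adjusted p = 0.404; DESeq2 adjusted p = 0.0109). The Mpv17-like protein mpv17l (ABG768_008439, chromosome 16, 13904706 to 13909129), of a family found in organelle membranes, was at 0.178 to 0.594 CPM in Ctrl and 1.26 to 2.1 CPM in the mutants (log2 fold change 2.34, DESeq2 adjusted p = 0.000539).

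The remaining 5 of the 12 were poorly annotated. FJX1 is the name given to an assembled locus (MSTRG.9325) whose best protein match bears another name, and it stood at 0.356 to 0.448 CPM in Ctrl and 0.782 to 2.67 CPM in the mutants. The hypothetical gene ABG768_014796 (chromosome 21, 1056791 to 1059036) had counts of 5, 0 and 2 for Ctrl and 15 to 74 for the mutants, and the assembled locus MSTRG.16400, without a protein match, reached 6 counts at most for Ctrl and 31 to 145 for the mutants. MSTRG.7098 was at 0.891 to 1.12 CPM in Ctrl and 3.17 to 6.81 CPM in the mutants. MSTRG.3376 is described with the loci named after Sorting nexin-25. Of the 12, Gimap9, MYH1s (ABG768_023108), ABG768_014796, MSTRG.7098, MSTRG.16400 and MSTRG.3376 kept an adjusted p under 0.05 by DESeq2 with any 1 fish left out. The other 6 (mpv17l, NLRC3, mapk8, FJX1, TRIM35 and TWIST2) missed it without Ctrl 1 (0.0797 to 0.291) and without Ctrl 2 (0.0685 to 0.29).

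**Figure D2:**
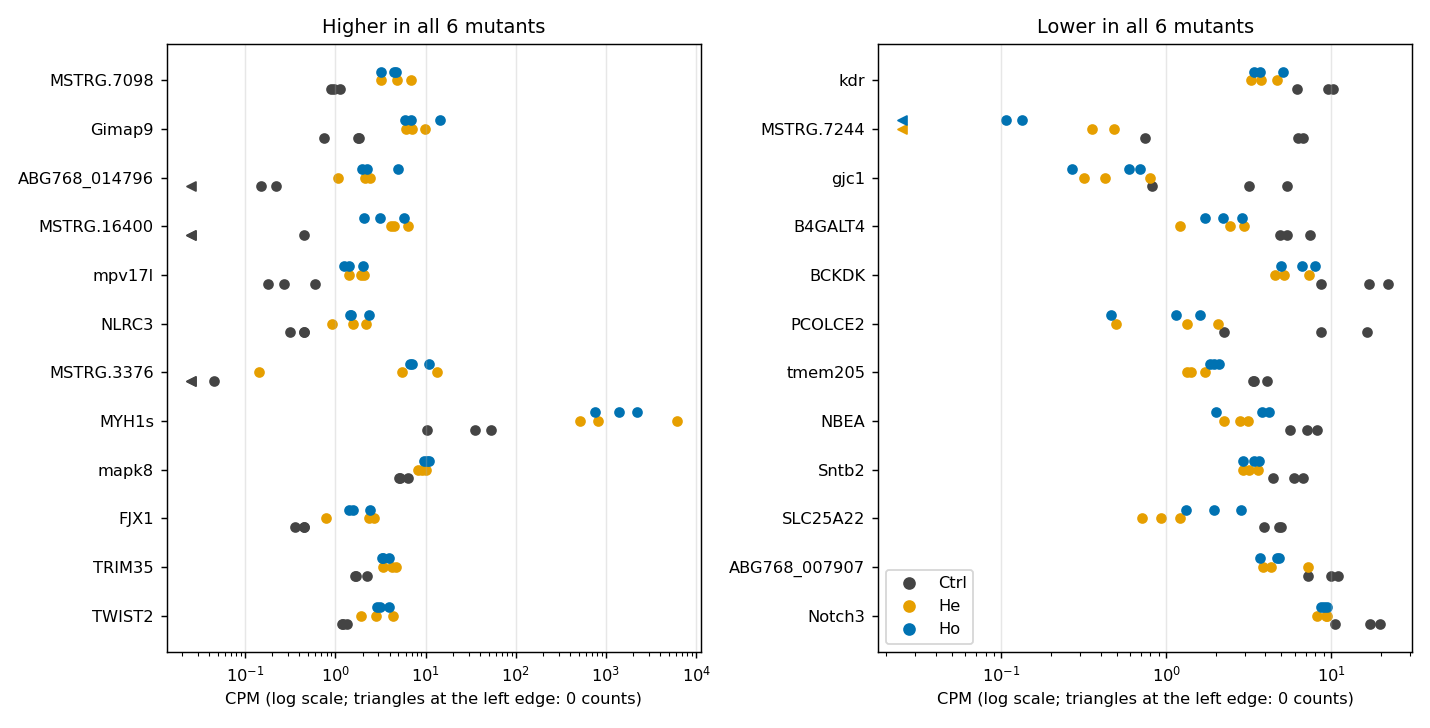
CPM of each fish on a log axis for the 12 loci higher and the 12 lower in all 6 mutants with the smallest edgeR p, in order of p from the top; each point is 1 fish, coloured by genotype, and triangles mark fish with 0 counts. Gimap9 runs from 5.95 to 14.3 CPM in the mutants and reaches 1.84 CPM in Ctrl, and in kdr all mutants lie at or below 5.1 CPM and all Ctrl fish at or above 6.24 CPM.

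In the lower direction the 12 loci included a VEGF receptor, a Notch receptor, a connexin and an enhancer of collagen processing. A kinase of branched-chain amino acid breakdown and a glutamate carrier were also among them. All 12 were lower by DESeq2 at an adjusted p under 0.05, while edgeR gave adjusted p-values of 0.377 to 0.406. These 12 too were chosen on the same counts, so their DESeq2 p-values are no separate evidence. The receptor kdr (ABG768_014124, chromosome 20, 19196763 to 19226274), through which VEGF drives vessel growth, stood at 9.6, 10.3 and 6.24 CPM in Ctrl, at 3.27, 4.67 and 3.76 for He 1 to 3, and at 5.1, 3.39 and 3.69 for Ho 1 to 3. Ctrl 3 was the lowest wild-type fish, above every mutant as the choice of the 12 required. The log2 fold change was -1.13 (standard error 0.21, edgeR adjusted p = 0.377; DESeq2 adjusted p = 0.00558). In bulk tissue fewer cells of a type and less RNA per cell cannot be told apart, for this and the genes that follow.

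Notch3 (ABG768_019853, chromosome 3, 44432431 to 44461910), a receptor of mural cells around vessels, was at 17.2, 19.8 and 10.5 CPM in Ctrl and in a narrow range of 8.24 to 9.47 CPM in the mutants. Its log2 fold change was -0.81 (standard error 0.19, DESeq2 adjusted p = 0.043). The connexin gene gjc1 (ABG768_023564, chromosome 6, 1455175 to 1456401), which forms gap junctions, was at 5.38, 3.18 and 0.817 CPM in Ctrl and 0.269 to 0.793 CPM in the mutants. There Ctrl 3 was almost level with He 2, and the difference came from Ctrl 1 and Ctrl 2. Another connexin gene, gja4 (ABG768_011767), chosen after its values were seen, was higher in the mutants by DESeq2 at an adjusted p under 0.05. Its DESeq2 log2 fold change was 0.92 without Ctrl 1 (adjusted p = 0.307) and 1.1 without Ctrl 2 (adjusted p = 0.222).

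PCOLCE2 (ABG768_025388, chromosome 7, 30117619 to 30129967), which enhances the cleavage of the procollagen C-propeptide, stood at 8.71, 16.6 and 2.23 CPM in Ctrl and 0.46 to 2.07 CPM in the mutants. It had a log2 fold change of -2.93 (standard error 0.58, edgeR adjusted p = 0.377; DESeq2 adjusted p = 0.00167), and Ctrl 3 again lay just above the highest mutant. BCKDK (ABG768_022199, chromosome 5, 6570846 to 6599289), the kinase that switches off branched-chain keto acid breakdown, was at 22.2, 16.9 and 8.69 CPM in Ctrl and 4.55 to 7.94 CPM in the mutants (log2 fold change -1.39, DESeq2 adjusted p = 0.00899). SLC25A22 (ABG768_018096, chromosome 24, 14241034 to 14255018), a glutamate carrier of the mitochondrial inner membrane, stood at 4.8, 4.98 and 3.94 CPM in Ctrl, at 0.711, 0.925 and 1.21 for He 1 to 3, and at 2.84, 1.32 and 1.95 for Ho 1 to 3. The He fish lay lowest, but the log2 difference of Ho from He, 1.1, did not pass (standard error 0.34, edgeR adjusted p = 0.73).

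The other 6 loci had log2 fold changes of -0.8 (Sntb2) to -4.58 (MSTRG.7244). B4GALT4 (ABG768_022138, chromosome 5), a galactosyltransferase of the Golgi, was at 4.9 to 7.42 CPM in Ctrl and 1.21 to 2.98 CPM in the mutants. NBEA (ABG768_002767, chromosome 10), a scaffold of membrane traffic, was at 5.64 to 8.2 CPM in Ctrl and 2.01 to 4.18 CPM in the mutants. The syntrophin Sntb2 (ABG768_018483, chromosome 24), a partner of dystrophin, was at 4.46 to 6.77 CPM and 2.91 to 3.63 CPM, and tmem205 (ABG768_013877, chromosome 20) at 3.34 to 4.09 CPM and 1.34 to 2.09 CPM. That the groups did not overlap in these 4 genes follows from how the 12 were chosen. ABG768_007907, matched to a fish toxin subunit, differed by a log2 fold change of -0.99, and the assembled locus MSTRG.7244 ran to 152, 140 and 10 counts for Ctrl and 0 to 11 for the mutants. By DESeq2 each of the 12 rose above an adjusted p of 0.05 without Ctrl 1 (0.0615 to 0.593) and without Ctrl 2 (0.128 to 0.658). Leaving out 1 mutant also did so for Sntb2 and Notch3 (any of the 6), ABG768_007907 (any but He 1), SLC25A22 and tmem205 (He 2 or He 3) and NBEA (He 3).

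A few loci were at 0 counts in all 3 Ctrl fish and at 10 or more in at least 5 mutants. There were 4 of these. None was found in the opposite direction, but the opposite rule asks for 0 counts in every mutant, which is more fish than the Ctrl group. The contrast of 4 with none is therefore no evidence of a direction. TASOR (ABG768_002237, chromosome 10, 29045133 to 29093827), named for a subunit of the HUSH complex that silences repeats, showed 49, 50 and 95 counts for the He fish, and for the Ho fish 91, 0 and 16. Taking 3 counts over all Ctrl fish as the limit of detection, it was at least 45.1-fold higher in the mutants. A class I MHC gene (ABG768_020479, chromosome 3, 65684324 to 65705778) reached 0, 27 and 19 counts for the He fish and 19, 32 and 19 for the Ho fish, at least 17.4-fold higher. The assembled loci MSTRG.13136 (at least 61.8-fold) and MSTRG.2545 (at least 30.7-fold) were at 0 in He 2 and in He 1, respectively. So each of the 4 was also at 0 counts in 1 mutant. By DESeq2 TASOR and MSTRG.2545 kept an adjusted p under 0.05 with any fish left out, while MSTRG.13136 (0.0904 and 0.0897) and ABG768_020479 (0.0759 and 0.0823) lost it without Ctrl 1 and without Ctrl 2. The 4 loci were chosen for 0 counts in Ctrl. Their fold limits and p-values therefore restate that choice and are no separate evidence.

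TASOR has another copy with the same transcript length on chromosome 5 (ABG768_022818, 31078084 to 31127071), and there the values ran the other way. That copy stood at 5.02, 4.93 and 5.94 CPM in Ctrl, at 1.78, 2.16 and 0 for He 1 to 3, and at 1.23, 4.6 and 4.43 for Ho 1 to 3. Summed over both copies, TASOR was 4.93 to 5.94 CPM in Ctrl and 4.36 to 6.12 CPM in the mutants, and the groups overlapped. The copies took opposite extremes in single mutants, since He 3 had counts only on chromosome 10 and Ho 2 only on chromosome 5.

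A split between copies was also seen in 2 neighbours, chosen like the chromosome 5 copies after their values were seen. Single mutants were not always divided as for TASOR. The enzyme gene gmppb, which makes GDP-mannose for glycosylation, had 0 CPM in Ctrl on chromosome 10 (ABG768_002240, 29207257 to 29217479), 0, 0 and 5.35 in He and 4.94, 5.74 and 1.68 in Ho. On chromosome 5 (ABG768_022815, 30953655 to 30963841) it had 6.84, 6.9 and 4.01 CPM in Ctrl, at 4.26, 6.52 and 0 for He 1 to 3, and at 0, 0 and 2.69 for Ho 1 to 3. The sum over both was 4.01 to 6.9 CPM in Ctrl and 4.26 to 6.52 CPM in the mutants. PHAX, an adaptor for export of small nuclear RNA, was at 0 in Ctrl on chromosome 10 (ABG768_002246, 30405098 to 30427422) and at 0 to 1.81 CPM in the mutants. With its chromosome 5 copy (ABG768_022807, 29798405 to 29820812) it summed to 4.36 to 4.89 CPM in Ctrl and 3.61 to 4.62 CPM in the mutants. No mutant had PHAX counts on chromosome 10 only, and He 3 had 0.382 CPM there and 4.01 CPM on chromosome 5. In all 3 genes the wild-type fish had counts on chromosome 5 only, and the total per fish overlapped between the groups.

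These genes lie in matching stretches of both chromosomes (from 28558581 on chromosome 10 and from 29480416 on chromosome 5), where 19 symbols occur once on each side. Of the 16 pairs with at least 10 counts, 4 (Senp5, Sirt7, ARHGEF3 and Ip6k1) had exactly equal estimated counts at both copies in all 9 fish. Such twins made up 113 of the 20360 loci with at least 10 counts. Not every pair followed the 3 genes above. For ncbp2 the Ctrl fish had 2.58, 2.73 and 1.63 CPM on chromosome 10 and 0, 0 and 0.223 CPM on chromosome 5. The chromosome 5 copy of prrc1 had 0.356, 0.403 and 0.594 CPM in Ctrl and 0 in every mutant. The DESeq2 calls for TASOR (adjusted p = 0.00634) and PHAX (adjusted p = 0.00408) on chromosome 10 thus concern 1 copy of a pair whose summed level overlapped between the groups, and PHAX did not pass without Ctrl 1 (0.0979) or Ctrl 2 (0.119). Whether the fish differ in these copies or the alignment placed reads differently was not tested.

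**Figure D3:**
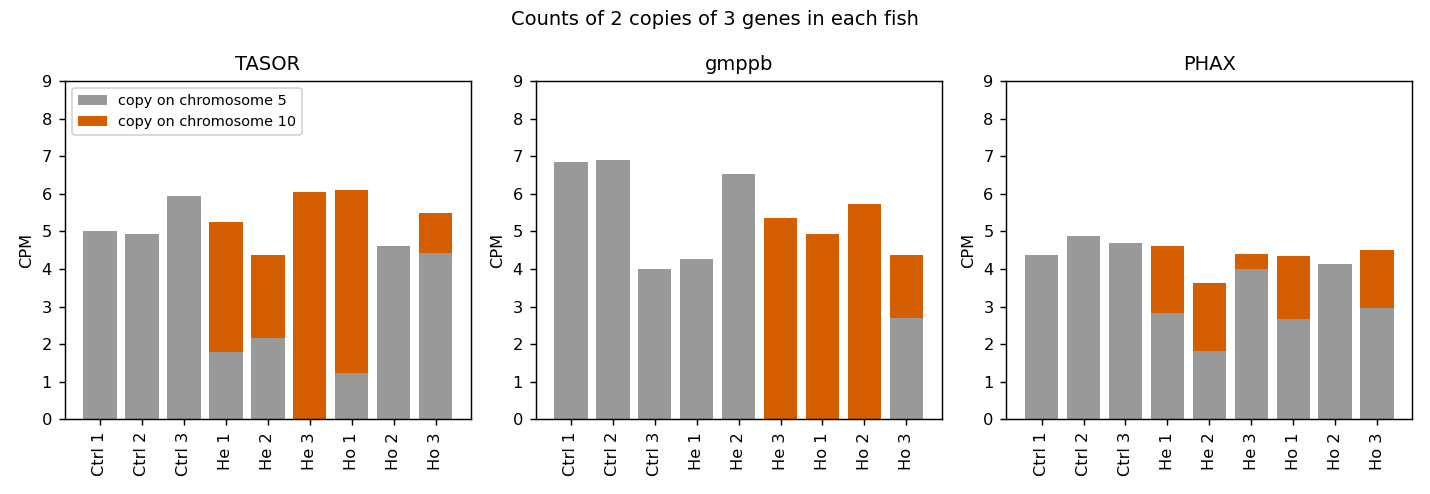
CPM of TASOR, gmppb and PHAX in each fish, stacked by gene copy, grey for the copy on chromosome 5 and orange for the copy on chromosome 10. The 3 Ctrl fish have only the grey copy, single mutants have either or both, and the summed height of TASOR is 4.93 to 5.94 CPM in Ctrl and 4.36 to 6.12 CPM in the mutants.

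Another set that was low in Ctrl came from loci assembled from reads and named after Sorting nexin-25 of *Labeo rohita*. The table holds 14 of them, none placed on a chromosome, and 13 were tested. DESeq2 had 10 higher in the mutants at an adjusted p under 0.05, among them MSTRG.2545 and MSTRG.3376, against 0.586% of all loci. How far loci of this name share reads was not measured, so the 10 cannot be taken as separate results. Together the loci of this name had 3.38, 1.34 and 9.36 CPM in Ctrl, 2.06, 54.8 and 94.3 for He 1 to 3, and 63, 42 and 78.7 for Ho 1 to 3. He 1 lay within the Ctrl range, and the other 5 mutants were at least 4 times as high as any wild-type fish. The adenylate cyclase gene ADCY9 (ABG768_001782, chromosome 10) and RSKR (ABG768_007357, chromosome 15), chosen after their values were seen, had the same pattern. ADCY9 was at 1.49 to 1.78 CPM in Ctrl, 1.14 in He 1 and 6.09 to 16.1 CPM in the other mutants. By DESeq2 neither passed without Ctrl 1 (0.0979 and 0.215) or Ctrl 2 (0.16 and 0.239). Of the 33 genes that DESeq2 called higher, 16 (48.5%) were assembled loci, against 5.58% of all tested loci, and 17 had under 10 counts over the 3 Ctrl fish.

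Genes of bone and cartilage gave no call by either tool. Of 27 tested loci on the list of osteoblast and bone matrix genes, 22 lay below 0, with a median log2 fold change of -0.35 against 0.00 for all tested loci. By edgeR 3 (11.1%, against 4.45% of all loci) had an unadjusted p under 0.05, all lower. These were the homeobox gene dlx5a, the mineralisation enzyme ENTPD5 and the bone matrix lectin CLEC3B. Thus dlx5a (ABG768_011811) stood at 1.02, 1.93 and 0.594 CPM in Ctrl and 0.172 to 0.672 CPM in the mutants (log2 fold change -1.76, standard error 0.5, edgeR adjusted p = 0.431; DESeq2 adjusted p = 0.157). The ranges overlapped, and Ctrl 3 was below the highest mutant.

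Of 22 cartilage loci, 18 lay below 0 (median -0.87), against 7347 of all 14755 tested loci. At an unadjusted edgeR p under 0.05 only 1 was lower (4.55%, against 4.45% of all loci) and none higher. It was the proteoglycan EPYC (log2 fold change -1.81, edgeR adjusted p = 0.538). The list's mean log2 CPM was 2.42, 3.28 and 2.94 in Ctrl and 0.54 to 2.67 in the mutants, which overlap. Among 14 osteoclast loci the integrin ITGB3 (ABG768_019284, chromosome 3), which osteoclasts share with platelets and fibroblasts, was lower by DESeq2 (adjusted p = 0.0223). Its levels were 10.6, 8.56 and 1.04 CPM in Ctrl and 0.161 to 2.07 CPM in the mutants, so Ctrl 3 lay inside the mutant range, and it did not pass without Ctrl 1, Ctrl 2, He 3 or Ho 3 (0.0527 to 0.623). The chloride transporter Clcn7 did not overlap (5.92 to 9.16 CPM in Ctrl, 3.59 to 4.94 CPM in the mutants; DESeq2 adjusted p = 0.0994). The collagenase MMP13 ran the other way, at 0.0444 to 0.371 CPM in Ctrl and 0.284 to 5.34 CPM in the mutants (edgeR adjusted p = 0.522). Of the 14 osteoclast loci 5 lay above 0 and 9 below (median -0.32). At an unadjusted edgeR p under 0.05, 3 were lower (21.4%, against 4.45% of all loci) and 1 higher (7.14%, against 4.14%).

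For tendon and myoseptum the median of 51 loci was -0.08. The fibrillar collagen Col5a2 (ABG768_023658) was lower by DESeq2 (adjusted p = 0.0497), at 17.8, 41.4 and 6.76 CPM in Ctrl and 0.924 to 8.69 CPM in the mutants, but not without Ctrl 1, Ctrl 2, He 3, Ho 2 or Ho 3 (0.0631 to 0.871). COL14A1 and the myotendinous glycoprotein TNC had log2 fold changes of -1.81 and -0.85 without passing either test. The signalling lists held few differences. In BMP and TGF-beta signalling (48 loci, median -0.07) the receptor TGFBR1 was at 1.87 to 3.49 CPM in Ctrl and 3.61 to 5.11 CPM in the mutants, and LTBP3, which stores latent TGF-beta in the matrix, at 18.9 to 33.1 and 10.1 to 18.1 CPM. In Wnt signalling (37 loci, median -0.18) the receptor fzd2 was at 2.98 to 5.06 CPM in Ctrl and 1.72 to 2.35 CPM in the mutants, and the ligand WNT2B at 1.19 to 2.51 and 0.287 to 0.858 CPM. These 4 genes did not overlap between the groups and had DESeq2 adjusted p-values of 0.0987 to 0.236. They were not the only such members. Among the 48 BMP and TGF-beta loci 2 higher and 2 lower did not overlap, and among the 37 Wnt loci 1 higher and 2 lower. Over all tested loci the share without overlap was 3.69%. No member of either signalling list passed an adjusted p of 0.05 by either tool.

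Muscle lists had medians of opposite sign for fast and slow fibres, a difference that was not tested. Of 64 fast muscle loci, 48 lay above 0 (median 0.43), 6 (9.38%, against 4.14% of all loci) had an unadjusted edgeR p under 0.05, all higher, and DESeq2 had 3 higher and none lower (0.586% of all loci were higher), all of them myosin heavy chains. Besides both MYH1s loci named above, these included Myh4 (assembled locus MSTRG.3895), with 0, 1 and 0 counts in Ctrl, at 4, 1940 and 13002 for He 1 to 3, and at 3911, 2594 and 512 for Ho 1 to 3. He 1 was thus close to Ctrl here. Of the 3, ABG768_023109 did not pass without Ctrl 1 (0.215) or Ctrl 2 (0.244). With counts scaled to library totals the fast list's median was 0.15. Of 43 loci of slow and cardiac-type muscle, 35 lay below 0 (median -0.4) and none passed. The mean log2 CPM of each list overlapped between the groups (8.83 to 9.23 in Ctrl and 9.16 to 10.06 in the mutants for fast muscle, 4.8 to 5.23 and 3.84 to 5.03 for slow muscle). The calcium pump ATP2A2 (ABG768_026865, chromosome 8), of slow and cardiac fibres, stood at 1946, 1377 and 1505 CPM in Ctrl, at 544, 444 and 533 for He 1 to 3, and at 1343, 260 and 1364 for Ho 1 to 3. No mutant reached the lowest Ctrl fish, but Ho 1 and Ho 3 came close (log2 fold change -1.11, standard error 0.47, edgeR adjusted p = 0.563). The list of muscle atrophy, growth and stress (58 loci, median 0.11) went both ways. At an unadjusted edgeR p under 0.05, 5 were higher and 5 lower (8.62% each, against 4.14% and 4.45% of all loci). DESeq2 had 1 higher at an adjusted p under 0.05 (0.586% of all loci were higher). Without overlap were 3 higher and 2 lower loci, against 1.76% and 1.92% of all loci. Among its members follistatin (fsta), which binds myostatin and activins, was at 0.756 to 1.43 CPM in Ctrl and 1.61 to 3.44 CPM in the mutants (DESeq2 adjusted p = 0.152). The small heat shock protein CRYAB was at 18.4 to 20.1 and 6.09 to 15.1 CPM (DESeq2 adjusted p = 0.153).

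Markers of surface epithelium had the lowest median of the 31 lists. Of 68 tested loci, 58 lay below 0 (median -1.21), and 17 (25%) had an unadjusted edgeR p under 0.05, all lower, against 4.45% of all loci. The hemidesmosomal collagen COL17A1 (ABG768_005666, chromosome 13) was the 1 member lower by DESeq2 (adjusted p = 0.013), at 80, 47.6 and 4.98 CPM in Ctrl and 0.509 to 8.9 CPM in the mutants, and missed the threshold without Ctrl 1 (0.564), Ctrl 2 (0.241) or He 2 (0.141). The plakin PPL, at 52.4, 22.2 and 1.56 CPM in Ctrl and 0 to 3.5 CPM in the mutants, did not pass (DESeq2 adjusted p = 0.0965). Over the list, the mean log2 CPM was 3.7, 2.82 and 1.14 in Ctrl, at 0.00, 1.22 and 0.43 for He 1 to 3, and at 1.96, 3.2 and 1.51 for Ho 1 to 3. So Ctrl 3 lay inside the mutant range, 4 mutants (He 2 and all Ho fish) lay inside the Ctrl range, and the median was -2.74 in He against Ctrl and -0.44 in Ho. With this level as a covariate DESeq2 had 46 genes higher and 12 lower at an adjusted p under 0.05, of which 35 were among the 122 without it. Gimap9 (adjusted p = 2.29e-05), MYH1s (ABG768_023108; 5.42e-05) and mpv17l (0.0227) passed by DESeq2 with the covariate, while TWIST2 (0.0587), mapk8 (0.0803), kdr (0.117), PCOLCE2 (0.0552) and COL17A1 (0.349) did not, and of the 12 lower loci only MSTRG.7244 did (0.00806). The DESeq2 log2 fold changes with and without the covariate were 1.44 and 1.37 for TWIST2, 0.8 and 0.83 for mapk8, -0.95 and -1.11 for kdr and -2.5 and -2.93 for PCOLCE2. For COL17A1, itself on the covariate's list, they were -1.61 and -3.36.

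Genes of pigment and red blood cells ran the same way as the epithelial markers. Of 15 pigment loci 12 lay below 0 (median -0.6), and PMEL (ABG768_003303, chromosome 11), which builds melanosome fibrils, was lower by DESeq2 (adjusted p = 0.0434) at 4.53, 4.71 and 0.446 CPM in Ctrl and 0.284 to 0.862 CPM in the mutants, and passed only with all fish, without Ctrl 3 or without Ho 2. Of 23 red blood cell loci 19 lay below 0 (median -0.6), with the transferrin receptor Tfrc at 13.1 to 21 CPM in Ctrl and 6.11 to 12.5 CPM in the mutants (DESeq2 adjusted p = 0.248). The mean log2 CPM of the pigment list was 1.05, 1.06 and 0.37 in Ctrl and -0.46 to 0.41 in the mutants, and that of the red cell list 3.66, 3.37 and 1.71 in Ctrl and 2.12 to 3.02 in the mutants. Ctrl 3 was thus the lowest Ctrl fish in epithelial, pigment and red cell genes alike. The part of skin or blood in the other differences was not tested beyond the covariate. A pair of genes outside these lists was likewise low in Ctrl 3. NT5DC1 (ABG768_014062, chromosome 20), chosen after its values were seen, was at 203, 423 and 13.3 CPM in Ctrl and 3.62 to 20.9 CPM in the mutants, and the aquaporin AQP3 (ABG768_022556, chromosome 5), likewise chosen and known from epithelia, at 41.4, 15 and 2.08 CPM and 0.827 to 3.16 CPM. Both were lower by DESeq2 (adjusted p = 0.00033 and 0.000714), but NT5DC1 missed 0.05 without Ctrl 2 (0.156) and AQP3 without Ctrl 1 (0.272).

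Immediate early genes, which are induced within minutes of stimulation or handling, had the highest median. Of 59 tested loci 50 lay above 0 (median 0.55), and 11 (18.6%) had an unadjusted edgeR p under 0.05, all higher, against 4.14% of all loci. None passed an adjusted p of 0.05. The matricellular gene CCN1 (ABG768_016819) stood at 37.9, 19.6 and 47.5 CPM in Ctrl, at 53.4, 60.5 and 201 for He 1 to 3, and at 149, 124 and 64.6 for Ho 1 to 3 (DESeq2 adjusted p = 0.0527). The nuclear receptor Nr4a2 (2.04 to 2.9 and 3.2 to 18.2 CPM, DESeq2 adjusted p = 0.055) and the phosphatase DUSP5 (1.17 to 1.6 and 1.92 to 7.89 CPM, DESeq2 adjusted p = 0.0908) did not overlap either. He 3, Ho 1 and Ho 2 were the 3 highest fish in all 3 genes. Time from capture to freezing is not given in the sources used here.

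The inducible chaperone hsp70 was high in the same 3 fish. At the locus ABG768_019361 (chromosome 3, 29608984 to 29611845) it stood at 1.16, 2.96 and 13.4 CPM in Ctrl, at 36.5, 19.4 and 252 for He 1 to 3, and at 240, 217 and 17.1 for Ho 1 to 3. Ho 3 was almost level with Ctrl 3. The log2 fold change was 4.51 (standard error 1.33, edgeR adjusted p = 0.431; DESeq2 adjusted p = 0.0113), and the neighbouring copy ABG768_019360 followed it (DESeq2 adjusted p = 0.0244). Over the 45 loci of chaperones and ER folding the median was -0.01, and DESeq2 had none but these 2 copies higher. At an unadjusted edgeR p under 0.05, 6 of the 45 were higher (13.3%, against 4.14% of all loci) and none lower. In 3 of the 45 all mutants lay above all Ctrl fish, as in 1.76% of all loci. By DESeq2 both hsp70 copies were above 0.05 without Ctrl 1 (0.235 and 0.389) or Ctrl 2 (0.301 and 0.426), and ABG768_019360 also without He 3, Ho 1 or Ho 2 (0.0532 to 0.108).

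In energy metabolism, PFKFB3 (ABG768_021308, chromosome 4, 20938532 to 20947217), which raises the main activator of phosphofructokinase, was higher by DESeq2 (adjusted p = 0.00163). It stood at 1.91, 1.88 and 2.23 CPM in Ctrl, at 17.8, 7.62 and 95.8 for He 1 to 3, and at 7.3, 4.88 and 31.8 for Ho 1 to 3, with all mutants above all Ctrl fish and a wide spread among them (log2 fold change 3.78, standard error 1.09, edgeR adjusted p = 0.431). The glycolysis list as a whole had a median of -0.13 over 47 loci. The creatine-synthesis enzyme gamt (ABG768_003368) was at 112 to 171 CPM in Ctrl and 187 to 346 CPM in the mutants (log2 fold change 0.96, DESeq2 adjusted p = 0.0133). Its list, purine nucleotide and creatine, had a median of -0.03 over 36 loci. At an unadjusted edgeR p under 0.05, 1 of them was higher (2.78%, against 4.14% of all loci) and 3 lower (8.33%, against 4.45%). The inositol phosphatase INPP5B (ABG768_008255, chromosome 16), on the list of candidates that the study drew from these same samples, was at 5.11 to 9.43 CPM in Ctrl and 10.6 to 37.3 CPM in the mutants (DESeq2 adjusted p = 0.00471). By DESeq2, PFKFB3 missed 0.05 without Ctrl 1 (0.0615) or Ctrl 2 (0.0685), INPP5B without Ctrl 1 (0.0717) or Ctrl 2 (0.2), and gamt without Ctrl 1 (0.289), Ctrl 2 (0.378) or Ho 1 (0.0541).

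In fatty acid oxidation 28 of 35 loci lay below 0 (median -0.26). The dehydrogenase Acadl was at 72.4 to 88.7 CPM in Ctrl and 19.1 to 58.9 CPM in the mutants without passing (DESeq2 adjusted p = 0.128). Of 42 loci for aminoacyl-tRNA synthesis and amino acid stress 35 lay above 0 (median 0.27), among them SHMT2 and the glycyl-tRNA synthetase GARS1 (61.2 to 72.4 CPM in Ctrl, 77.2 to 119 CPM in the mutants, DESeq2 adjusted p = 0.14). With counts scaled to library totals the latter list's median was -0.04, so its direction depends on the scaling.

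Immune genes other than Gimap9 were less uniform. On the list of T cells and lymphocytes (21 loci tested of 177, median 0.07), the coreceptor CD4 (assembled locus MSTRG.11347) was at 1.39 to 2.23 CPM in Ctrl and 2.25 to 5.46 CPM in the mutants (DESeq2 adjusted p = 0.118). In the interferon response the kinase Eif2ak2 was at 0.52 to 1.33 CPM in Ctrl and 1.41 to 3.12 CPM in the mutants (DESeq2 adjusted p = 0.0764), while the guanylate-binding protein gbp4 (ABG768_021875) was at 20.1, 5.47 and 0.297 CPM in Ctrl and 0.0636 to 1.49 CPM in the mutants. The scavenger receptor MARCO of macrophages was at 0.0743 to 0.359 CPM in Ctrl and 0.426 to 1.4 CPM in 5 mutants, with Ho 2 at 12.6 CPM. Vessel genes as a list did not follow kdr (31 loci, median -0.06). Here DLL4, a Notch ligand of vessel tips, was higher in all mutants (4.46 to 6 CPM in Ctrl, 6.32 to 9.33 CPM in the mutants, DESeq2 adjusted p = 0.221).

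**Figure D4:**
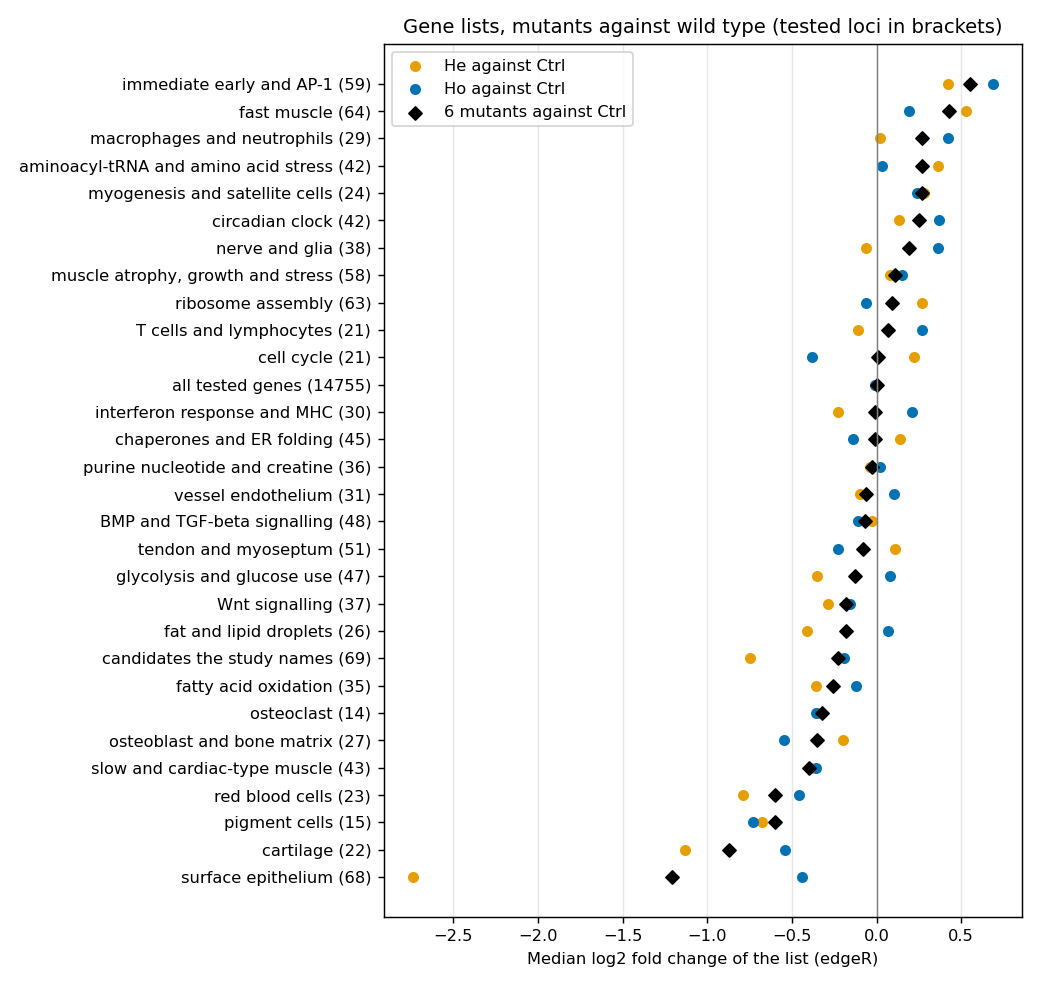
Median edgeR log2 fold change of each gene list with at least 14 tested loci, for the 6 mutants against Ctrl (black diamonds) and for each mutant genotype on its own (He and Ho, orange and blue points), with tested loci in brackets. Surface epithelium has the lowest median, -1.21, and immediate early genes the highest, 0.55, beside 0.00 for all tested genes.

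By position, loci without overlap between the groups were unevenly spread, against 3.69% over all tested loci. Chromosome 5 had 63 of 816 (7.72%), of which 49 were lower and 14 higher in the mutants, and its 5-Mb window with the largest share was 35 to 40 Mb (13 of 105, 12.4%), which holds the MYH1s cluster. Chromosome 20, which carries runx2b, had 33 of 567 (5.82%), with 23 lower, and in the window from 30 to 35 Mb, which holds runx2b, 8 of 76 loci (10.5%). Chromosome 24 had 27 of 454 (5.95%), and assembled loci 62 of 824 (7.52%), of which 52 were higher. On the other chromosomes the share was 2.11% to 4.25%. Neighbouring loci are not independent, and the unevenness was not tested.

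**Figure D5:**
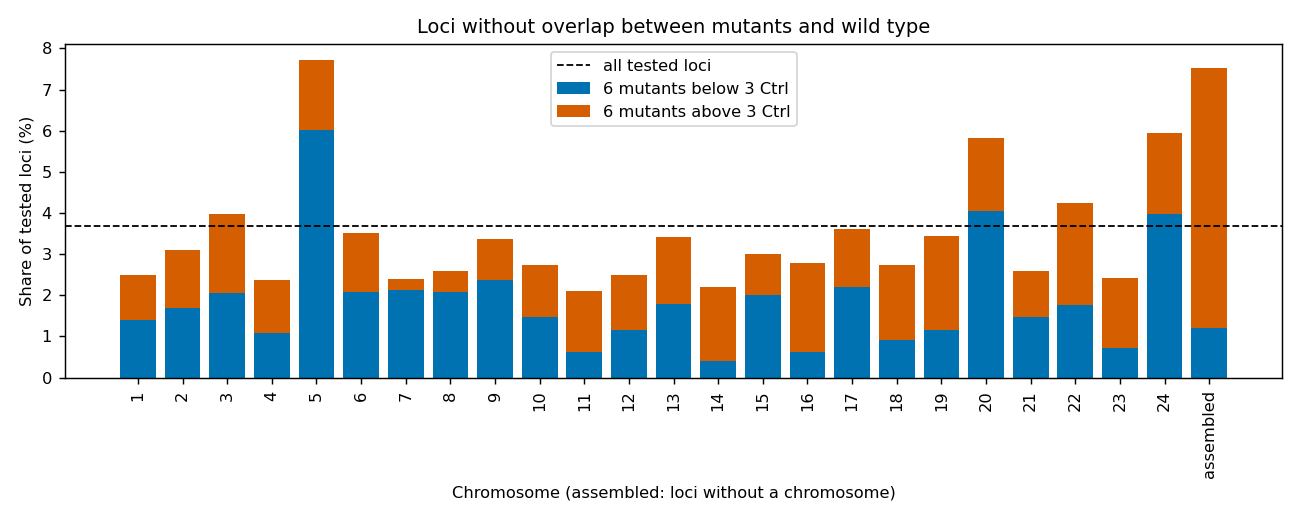
Share of tested loci on each chromosome whose 6 mutant fish all lay above (orange) or all below (blue) the 3 Ctrl fish in CPM, with the share over all tested loci as a dashed line. Chromosome 5 (7.72%) and assembled loci (7.52%) stand highest, the first mostly with lower and the second mostly with higher loci.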

How the data were processed

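RNA from 9 fish, 1 poly(A) Illumina library each, was compared as 6 runx2b mutants against 3 wild-type fish. The authors filtered reads, aligned them to assembly GCA_040182925.1 and deposited an estimated count per locus, not scaled, and TPM, which the authors' files bring to one sum for every library; aligner and counter are not given in the sources used here. FPKM was not used. Of 29791 loci, 28228 are annotated and 1563 were assembled from reads; 94.3% of estimated counts were whole numbers (within 1e-6) and all were rounded. Symbols came from the table's Swiss-Prot and KEGG matches, and coordinates from RefSeq locus tags of the same assembly.

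Loci passing filterByExpr were scaled by TMM and tested with edgeR 4.0.16 (glmQLFit robust, glmQLFTest) in R 4.3.3, with 1 mean per side and Benjamini-Hochberg adjustment over 14755 loci. Standard errors are the log2 fold change over the square root of F. DESeq2 1.42.0 and limma 3.58.1 (trend option, log2(TPM + 1)) were alternatives, with RLE, library totals, no filter, at least 10 counts in every library, a mean per genotype, a replicate block, an epithelial covariate (mean log2 CPM, prior count 2), He or Ho alone, and each fish left out. The 2-group fits of edgeR, DESeq2 and limma were tested on simulated counts, limma there on log2(CPM + 1). The other alternatives were not. A floor of 3 counts over the group, by library totals, was used for counts of 0, and intervals and floors cover counting error only. Single values were compared by exact permutation.

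Named genes were runx2b, the 12 loci per direction with the smallest edgeR p among those without overlap, up to 3 per described list, and loci at 0 on one side. The 31 lists and the members were chosen with earlier results of these data known. Replicate numbers were not taken to pair fish. Tables and figures used matplotlib 3.10.9 and pandas 2.3.3 under Python 3.11.15.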

Additional observations from a re-analysis of the deposited data

Results flagged for a closer look

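Among the 6 mutants, 1 fish lay far from the other 5 (by Dixon's 95% critical value for 6 samples, in log2 CPM) for 11 of 121 named loci. Chance flags about 1 in 20 groups, but that rate does not hold for loci chosen as these were: the rule for MSTRG.13136, MSTRG.2545 and ABG768_020479 allows 1 mutant at 0, and the TASOR copy was chosen after its values were seen. He 1 lay low in MSTRG.3376 (0.142 CPM), tyrp1 (0.497 CPM) and csf1r (0.853 CPM), and in MSTRG.2545 and the class I MHC gene ABG768_020479 it had 0 CPM. He 2 lay low in MSTRG.13136, also at 0 CPM, and Ho 1 in CPT1A (2.31 CPM). Ho 2 lay high in MARCO (12.6 CPM) and VIL1 (3.45 CPM), a gene of gut and kidney epithelium, and He 3 in PMP22 (136 CPM), a myelin gene. In the chromosome 5 copy of TASOR (ABG768_022818) He 3 was at 0 CPM. Of the 11, 5 thus concern He 1. In the 86 loci higher by DESeq2 at an adjusted p under 0.05, He 1 was the mutant most often within the wild-type range (22 times). In the 36 lower ones it lay there least often (3 times). Their causes were not tested.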

How the results depend on the processing

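The edgeR count of 0 called loci stayed 0 with RLE, library totals, no filter, the stricter filter, a mean per genotype, the epithelial covariate, TPM with limma and either genotype alone. Numbers 1 to 3 were not taken to pair fish. Deviations from genotype means of same-numbered fish correlated between -0.26 and 0.26, and whether such fish shared a batch was not tested. With the replicate block edgeR called 0, and 586 loci were higher and 575 lower at an unadjusted p under 0.05. Leaving out 1 fish gave edgeR 0 to 3 calls (3 without He 1, 2 without Ctrl 3) and 0 to 83 at an adjusted p under 0.05, the latter without Ctrl 3, and Ho alone gave 8. DESeq2 had 43 and 122, with the covariate 21 and 58, with He alone 74 called, and without 1 fish 8 to 349 called and 16 to 942 at an adjusted p under 0.05. Calls moved by over 1.5 times without Ctrl 1 or Ctrl 2 (8 each), Ctrl 3 (349), He 3 (25) or Ho 3 (28), and the looser count also without Ho 1 (79) or Ho 2 (184). Unadjusted edgeR calls were 48.2% higher under TMM, 10.7% under library totals, 59% with the covariate, 38.4% in He alone and 36.3% without Ho 2, and limma's on TPM, where tool and scale both differ, were 5.94% higher. Loci without overlap numbered 544, and 833 with TPM, an alternative chosen after seeing the data. The pseudo-F of 1.6 was 2.12 on the 500 most variable genes, and 1.03 to 2.27 without 1 fish. Of 4327 log2 fold changes of named loci under alternatives, 12 changed sign. runx2b stood at 0.00 by edgeR and 0.06 by DESeq2 without Ctrl 2 and 0.3 with the covariate by DESeq2. PFKFB4 went to 0.02 and 0.04 and ANPEP to 0.03 and 0.05 without Ctrl 1 (edgeR and DESeq2), and ANPEP to 0.01 with the covariate. VIL1 was -0.01 with TPM, -0.51 with a mean per genotype and -0.05 with the block, and Rrm2b -0.01 with TPM. The causes were not tested. With 3 wild-type fish the smallest p of a single value is limited, and loci of a few counts carry wide errors.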
